A study of Mus musculus with 12 samples.

Results

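Integrins are the cell surface receptors by which cells hold on to the extracellular matrix, and 10 of their genes, Itga1, Itga3, Itga4, Itga5, Itga6, Itga7, Itga9, Itgav, Itgb1 and Itgb8, were followed here in sciatic dorsal root ganglia (DRG) after sciatic nerve axotomy (SNA) and after housing in an enriched environment (EE). The 10 genes were chosen by name as integrin subunits known from growing axons and glia, out of 44345 genes in the count table. This choice was made with earlier results of these data known. All 10 were among the 16238 genes with enough reads to be tested. Because RNA came from whole ganglia, the data do not tell which cells, neurons or glia, held each mRNA.

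Each integrin is a pair of 1 alpha and 1 beta subunit, and the alpha subunit largely sets which matrix protein is bound. With Itgb1, the beta subunit shared by most alpha subunits of the list, Itga3, Itga6 and Itga7 bind laminins, Itga1 binds collagens and laminin, Itga5 binds fibronectin, and Itga4 and Itga9 bind ligands such as VCAM1, fibronectin splice forms and tenascin-C. Itgav pairs with several beta subunits, Itgb8 among them, and binds ligands with an RGD motif, including vitronectin and latent TGF-beta. Regrowing peripheral axons advance on the laminin-rich basal lamina of Schwann cells, and integrins of laminin and of fibronectin are known to carry this growth.

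C57BL/6 mice of 5 to 8 weeks spent 10 days in standard housing (SH) or EE, then received SNA or sham surgery, and their ganglia were taken 24 h later. This gave 4 groups of 3 samples each, SH with either surgery (SH Sham and SH SNA) and EE with either surgery (EE Sham, EE + SNA), with no genetic change in any. A sample was a pool of the ganglia of 2 mice, taken from both sides, so that a group stood for 6 mice and the spread between samples is that between pools. The study used SH SNA to ask what a conditioning injury changes, EE Sham what housing changes, and EE + SNA what both change together. It describes EE Sham as a dataset reported earlier. Whether those libraries were made apart from the others is not given in the sources used here. If they were, that difference cannot be told apart from EE in EE Sham against SH Sham, or from SNA in EE + SNA against EE Sham. It would also enter any comparison of the SNA responses between the housings.

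Between 11343579 and 22871460 reads per sample fell on genes (median 12769394). Atf3, a transcription factor induced in axotomised neurons and the check of the surgery labels, lay at 110 to 168 CPM (reads scaled by library size) in the 6 sham samples and at 454 to 549 CPM in the 6 SNA samples. The 9 sensory neuron markers were all present, with a summed level of 8886 to 10554 CPM. The 6 epidermal markers summed to 3.34 to 4.78 CPM, and of these Krt5 and Flg were at 0 in samples of every group. A pair of samples stood apart by markers of other tissue. SH SNA replicate 2 held 933 CPM of 7 skeletal muscle genes against 3.70 to 162 CPM in the other 11 samples, and EE + SNA replicate 3 held the highest levels of 7 neutrophil genes (649.6 CPM against 63.0 to 278 CPM) and of 10 macrophage genes (267 CPM against 123 to 206 CPM). The called integrins and the counts over the pathway lists are given with and without these samples, the latter a choice made after seeing the data.

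Itga3, Itgav and Itgb1 were higher in EE + SNA than in SH Sham, as given further on, and their sequence before a transcription start is shown where no annotated exon overlaps it. Each is the 250 bases before a RefSeq start on GRCm38.p6, 5′ to 3′ on the strand of the gene, and capitals mark the Sp1 motif GGGCGG. RefSeq promoters were found for 8 of the 10 genes, which gave 9 windows, and Itga6 and Itga7 did not match. The Itgb1 window is chr8:128685404-128685653 on the plus strand, the Itgav window chr2:83724147-83724396 on the plus strand, and the Itga3 window chr11:95069199-95069448 on the minus strand, which lies before the downstream of its 2 starts.
Itgb1: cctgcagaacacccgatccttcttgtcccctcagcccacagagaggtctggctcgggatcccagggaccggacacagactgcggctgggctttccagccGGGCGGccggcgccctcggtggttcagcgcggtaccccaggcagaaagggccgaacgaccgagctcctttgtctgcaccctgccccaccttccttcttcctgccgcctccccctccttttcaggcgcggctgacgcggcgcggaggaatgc
Itgav: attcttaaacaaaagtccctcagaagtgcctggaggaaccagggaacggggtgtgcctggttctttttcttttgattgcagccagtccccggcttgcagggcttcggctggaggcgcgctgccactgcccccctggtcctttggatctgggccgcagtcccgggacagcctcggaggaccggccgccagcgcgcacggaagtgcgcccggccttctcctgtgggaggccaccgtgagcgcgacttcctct
Itga3: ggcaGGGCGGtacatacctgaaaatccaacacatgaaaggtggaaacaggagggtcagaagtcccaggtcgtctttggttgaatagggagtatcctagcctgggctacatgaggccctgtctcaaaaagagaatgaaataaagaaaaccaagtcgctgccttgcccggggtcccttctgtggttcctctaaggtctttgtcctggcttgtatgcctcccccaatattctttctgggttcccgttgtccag
GGGCGG was present in 5 of the 9 windows, of Itga3 (both starts), Itga4, Itga5 and Itgb1. In the windows shown the Sp1 motif occurs 1 time before Itgb1, at 151 to 146 bases before the start, and 1 time in the Itga3 window, at 246 to 241 bases before it, and it does not occur in the Itgav window. Searched on both strands of windows of the same length, GGGCGG was present in 32.7% of 32851 mouse promoters. The AP-1 motif TGANTCA and the STAT motif TTCNNNGAA were in 0 of the 9 integrin windows, and in 6.75% and 7.02% of all promoters. These are matches of letters only, and the motifs do not overlap each other here.

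On the deposited FPKM scale, which divides reads by gene length so that genes can be compared, Itgb1 was the most abundant of the 10 mRNAs in every group. In SH Sham it stood at 99.4 ± 2.50 FPKM (SD, n = 3), followed by Itga7 at 52.3 ± 3.80 FPKM and Itga3 at 13.99 ± 2.02 FPKM. Itgb8 at 9.74 ± 1.54 FPKM and Itga6 at 8.31 ± 0.499 FPKM overlapped, and Itgav followed at 4.42 ± 0.442 FPKM. Itga1, Itga5, Itga9 and Itga4 made up a low group at 0.878 to 1.16 FPKM whose neighbours overlapped. The order of the 6 upper genes was the same in the other 3 groups, and Itgb8 and Itga6 overlapped in each of those except EE Sham. On GRCm38 with GENCODE, Itgb1 lies at chr8:128685654-128733200 (plus strand), Itga7 at chr10:128933818-128958282 (plus strand), Itga3 at chr11:95044474-95076801 (minus strand) and Itgav at chr2:83724397-83806916 (plus strand).

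SNA raised mRNAs of laminin receptor subunits in both housings: Itga7, Itga3 and their partner Itgb1 were higher after SNA in SH and in EE, and none of the other 7 genes was called in both. In EE only the call of Itga7 was kept whichever sample was left out. In SH SNA against SH Sham, 3 of 10 genes were higher and 0 lower at an adjusted P-value of 0.05 (edgeR quasi-likelihood test, Benjamini-Hochberg over all genes), where 6.06% of all genes were higher and 5.17% lower. At an unadjusted P-value of 0.05, 4 were higher and 1 lower (Itga4), against 13.4% and 11.8% of all genes. All 3 SH SNA samples lay above all 3 SH Sham samples for 3 genes and below them for 1, against 14.3% and 15.1% of all genes. In EE + SNA against EE Sham, 3 were again higher and 0 lower, against 2.51% and 2.33%, with 7 higher and 1 lower (again Itga4) before adjustment against 10.3% and 10.4%. The EE + SNA samples lay above those of EE Sham without overlap for 7 genes and below for 0, against 13.4% and 12.3%. The median log2 fold change of the 10 genes was 0.22 in SH and 0.25 in EE, beside 0.0047 and 0.0039 over all genes tested. The sign of the fold change was the same in both housings for 10 of 10 integrins and for 12028 of the 16238 genes. The called genes were the same 3 in both housings, and 681 of all genes were called in both. Since the list was chosen with earlier results of these data known, these counts beside all genes describe it and are no test of it.

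**Figure D1:**
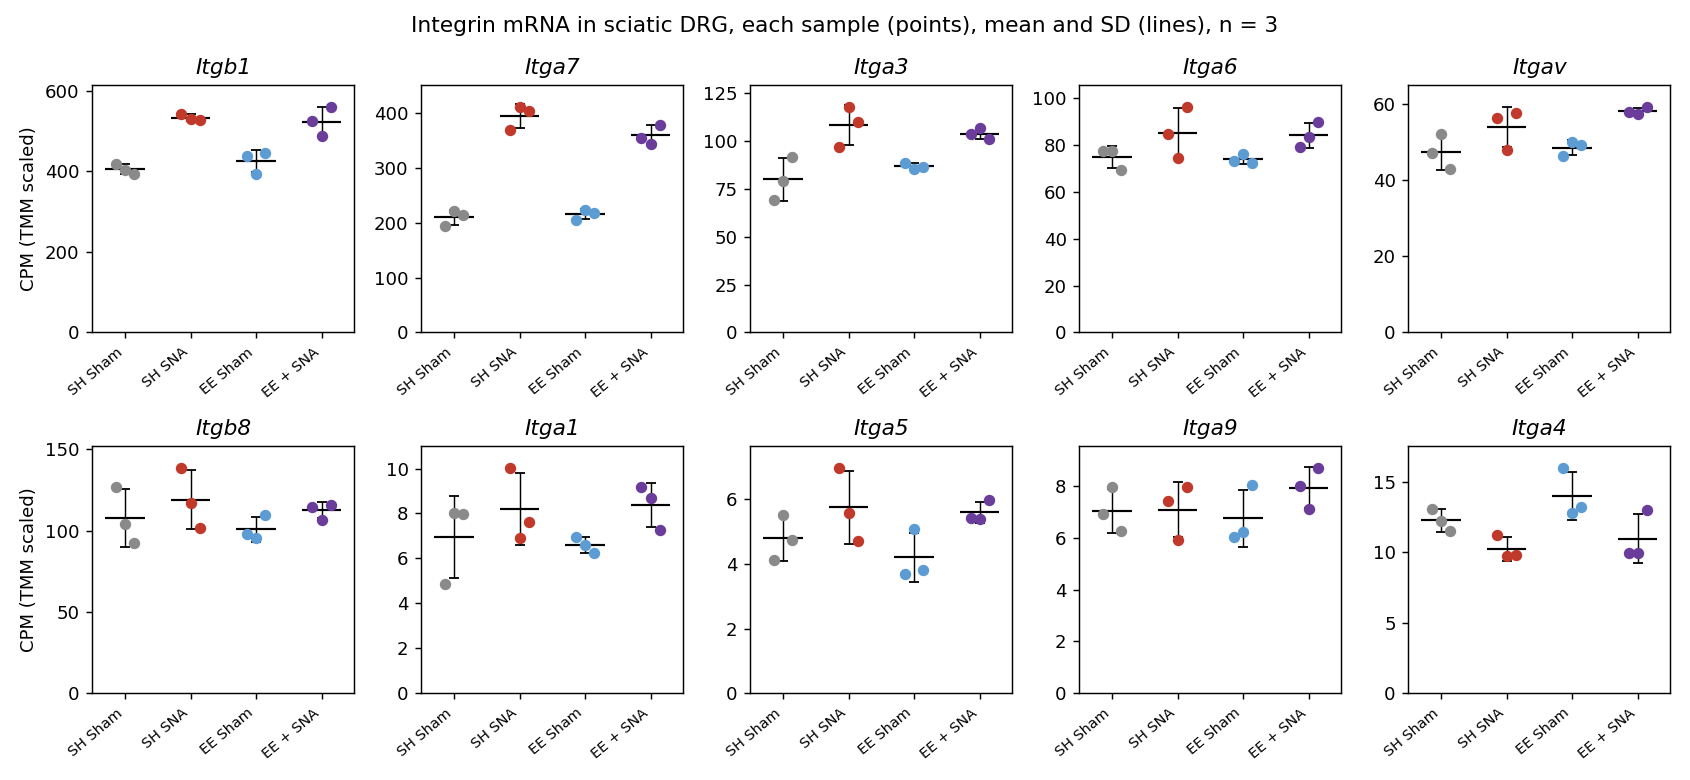
Levels of the 10 integrin mRNAs in CPM (y axis, from 0) in each of the 12 samples, by group on the x axis, with the group mean (wide line) and SD (bars). For Itga7, Itgb1 and Itga3 every SNA sample lies above every sham sample of the same housing, whereas Itga4 lies lower after SNA on average and Itga9 groups overlap.

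Among the laminin-binding alpha subunits, Itga7, the partner of Itgb1 that is known to rise in axotomised neurons and to be abundant in muscle, changed by far the most. In replicates 1, 2 and 3 it stood at 194, 221 and 214 CPM in SH Sham and at 369.7, 410.0 and 403 CPM in SH SNA. It stood at 205, 224 and 218 CPM in EE Sham and at 355, 343 and 379 CPM in EE + SNA. The sham and SNA ranges are far apart in both housings, and the lowest SNA sample lies well above the highest sham sample. The log2 fold change was 0.91 (SE 0.065, adjusted P = 4.84e-06, edgeR) in SH, a 1.88-fold rise, and 0.73 (SE 0.067, adjusted P = 0.000162) in EE, a 1.66-fold rise. The highest SH SNA sample is also the one with the skeletal muscle mRNAs, and without it the log2 fold change was 0.88 (adjusted P = 1.05e-05, edgeR). Without EE + SNA replicate 3 it was 0.69 in EE (adjusted P = 0.000362, edgeR).

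Itga3, a laminin receptor subunit that is also found in growing sensory axons, rose less. Its levels were 68.99, 78.9 and 91.5 CPM in SH Sham and 96.8, 117 and 110.0 CPM in SH SNA. In EE Sham they were 88.3, 85.5 and 86.1 CPM, and in EE + SNA 104, 107 and 101 CPM. The SH Sham samples were spread widely and the EE Sham samples were close together, but neither range reached that of its SNA group. The log2 fold change was 0.44 (SE 0.095, adjusted P = 0.00991, edgeR) in SH and 0.25 (SE 0.062, adjusted P = 0.0377) in EE. Without SH SNA replicate 2 the value in SH was 0.38 (adjusted P = 0.0333, edgeR). The call in EE was lost when any of the 6 samples was left out, with edgeR adjusted P-values of 0.0737, 0.0617 and 0.157 when EE Sham replicates 1, 2 and 3 were dropped in turn, and of 0.136, 0.117 and 0.0538 when those of EE + SNA were.

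Itga6, the laminin receptor subunit that pairs with Itgb1 or with Itgb4, was not called in either housing. It stood at 77.7, 77.3 and 69.6 CPM in SH Sham and 84.9, 74.7 and 96.1 CPM in SH SNA, so that these groups overlap. In EE Sham it stood at 73.4, 76.2 and 72.5 CPM and in EE + SNA at 79.4, 83.5 and 89.8 CPM, which do not overlap. The log2 fold changes were 0.19 (95% interval 0.0058 to 0.37, adjusted P = 0.185, edgeR) and 0.18 (0.031 to 0.33, adjusted P = 0.161). Without SH SNA replicate 2, the sample with the muscle mRNAs, the value in SH was 0.28 and the adjusted P = 0.0477 (edgeR).

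Of the beta subunits, Itgb1 rose and Itgb8 was not called. Itgb1, through which most of the listed alpha subunits reach the cell surface, stood at 418, 403 and 394 CPM in SH Sham and at 543, 529 and 526 CPM in SH SNA. In EE Sham it stood at 438, 394 and 445 CPM and in EE + SNA at 524, 487 and 558 CPM. Its groups are narrow in SH and wider in EE, and they do not overlap in either. The log2 fold change was 0.40 (SE 0.053, adjusted P = 0.00049, edgeR) in SH and 0.29 (SE 0.071, adjusted P = 0.0367) in EE. Without SH SNA replicate 2 the value in SH was 0.40 (adjusted P = 0.00136, edgeR). The call in EE was kept without EE + SNA replicate 2 (adjusted P = 0.0388) and lost without EE Sham replicate 1 (0.063), EE Sham replicate 2 (0.0708), EE Sham replicate 3 (0.0967), EE + SNA replicate 3 (0.119) or EE + SNA replicate 1 (0.13). Itgb8, the partner of Itgav in the activation of latent TGF-beta, ranged from 92.3 to 127 CPM in SH Sham and from 102 to 138 CPM in SH SNA. Its range was 95.2 to 109 CPM in EE Sham and 107 to 116 CPM in EE + SNA. Both pairs of groups overlap, with a log2 fold change of 0.15 in each housing (adjusted P = 0.491 and 0.265, edgeR).

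**Figure D2:**
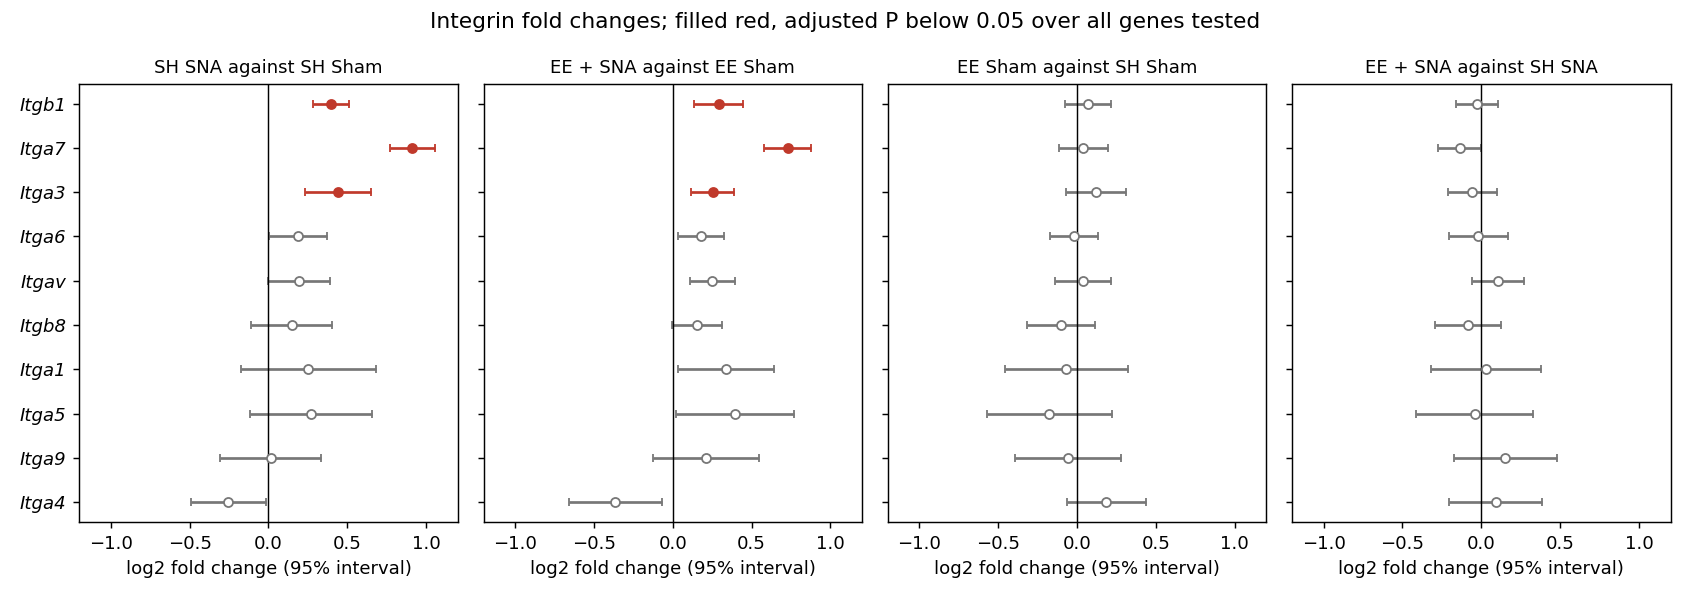
Log2 fold change (x axis) of each integrin gene (y axis) with its 95% interval in 4 comparisons from edgeR, with filled red points for an adjusted P-value below 0.05. Itgb1, Itga7 and Itga3 are filled in both comparisons of SNA with sham surgery, and no gene is filled in the 2 comparisons of housing.

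The receptors of fibronectin, VCAM1, tenascin and RGD ligands were less abundant and none was called within a housing. Itgav, the RGD-binding alpha subunit, stood at 47.05, 52.1 and 42.9 CPM in SH Sham and 56.5, 48.0 and 57.7 CPM in SH SNA, which overlap. In EE Sham it stood at 46.5, 50.01 and 49.3 CPM and in EE + SNA at 58.0, 57.3 and 59.2 CPM, which do not. Its log2 fold change was 0.19 (SE 0.089, adjusted P = 0.199, edgeR) in SH and 0.25 (SE 0.065, adjusted P = 0.051) in EE. Without EE Sham replicate 2 the adjusted P in EE was 0.0481 (edgeR). In the GENCODE annotation 5.90% of its exon bases are shared with Gm13684 on the other strand, and since the strand setting of the counting is not given in the sources used here, reads of the 2 genes cannot be told apart there.

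Itga4, a receptor subunit for VCAM1 and fibronectin, was the 1 gene of the 10 with lower means after SNA in both housings. It stood at 13.1, 12.2 and 11.5 CPM in SH Sham and at 11.2, 9.72 and 9.79 CPM in SH SNA, with all SNA samples below all sham samples. In EE Sham it stood at 16.0, 12.8 and 13.2 CPM and in EE + SNA at 9.97, 9.96 and 12.97 CPM, where 1 SNA sample lies within the sham range. The log2 fold changes, −0.26 (95% interval −0.49 to −0.017) and −0.36 (−0.66 to −0.071), passed before adjustment (unadjusted P = 0.0375 and 0.0192) but were not called, with adjusted P-values of 0.168 and 0.149 (edgeR). Of its exon bases, 8.04% are shared with Cerkl on the other strand.

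Itga5, the alpha subunit of the classical fibronectin receptor, lay at 4.11 to 5.52 CPM in SH Sham and at 4.70 to 6.96 CPM in SH SNA, which overlap. In EE Sham it lay at 3.70 to 5.08 CPM and in EE + SNA at 5.40 to 5.96 CPM, which do not. Its log2 fold changes were 0.27 in SH (95% interval −0.11 to 0.66, adjusted P = 0.382, edgeR) and 0.39 in EE (0.019 to 0.77, unadjusted P = 0.0412, adjusted P = 0.221). Itga1, the collagen receptor subunit, lay at 4.87 to 8.03 CPM in SH Sham and 6.93 to 10.02 CPM in SH SNA, which overlap, and at 6.26 to 6.95 CPM in EE Sham and 7.25 to 9.17 CPM in EE + SNA, which do not. Its values were 0.25 in SH (−0.18 to 0.68, adjusted P = 0.475, edgeR) and 0.34 in EE (0.035 to 0.64, unadjusted P = 0.0317, adjusted P = 0.193). Itga5 and Itga1 were thus higher in all EE + SNA samples than in all EE Sham samples, without passing after adjustment. Itga9, the tenascin-C receptor subunit, lay at 6.28 to 7.96 CPM in SH Sham and 5.91 to 7.96 CPM in SH SNA, and at 6.05 to 8.04 CPM in EE Sham and 7.14 to 8.70 CPM in EE + SNA. Both pairs of groups overlap, with values of 0.015 (−0.31 to 0.34, adjusted P = 0.967, edgeR) and 0.21 (−0.12 to 0.55, adjusted P = 0.479). These 3 genes rested on 41 to 200 reads per sample, fewer than the other members except Itga4.

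The make-up of the alpha subunits was described by adding up the FPKM of the 8 alpha genes, a description of the same values and no further test. The sum was 83.1 ± 5.72 FPKM in SH Sham and 135 ± 5.84 FPKM in SH SNA, and 85.0 ± 4.16 FPKM in EE Sham and 125 ± 3.91 FPKM in EE + SNA (SD, n = 3 each). Itga7 made up 63.0% ± 0.405 of it in SH Sham and 72.2% ± 0.952 in SH SNA, and 62.8% ± 1.05 in EE Sham and 70.5% ± 1.001 in EE + SNA. The share of Itga7 was 61.6% to 63.5% in the 6 sham samples and 69.5% to 73.3% in the 6 SNA samples, with no overlap. The 3 laminin-binding subunits together held 89.8% of the sum in SH Sham, 93.1% in SH SNA, 90.1% in EE Sham and 92.2% in EE + SNA. The alpha sum was 0.837 times the level of Itgb1 in SH Sham, 1.04 times in SH SNA, 0.824 times in EE Sham and 0.991 times in EE + SNA. These are ratios of mRNA and not of receptor at the cell surface.

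**Figure D3:**
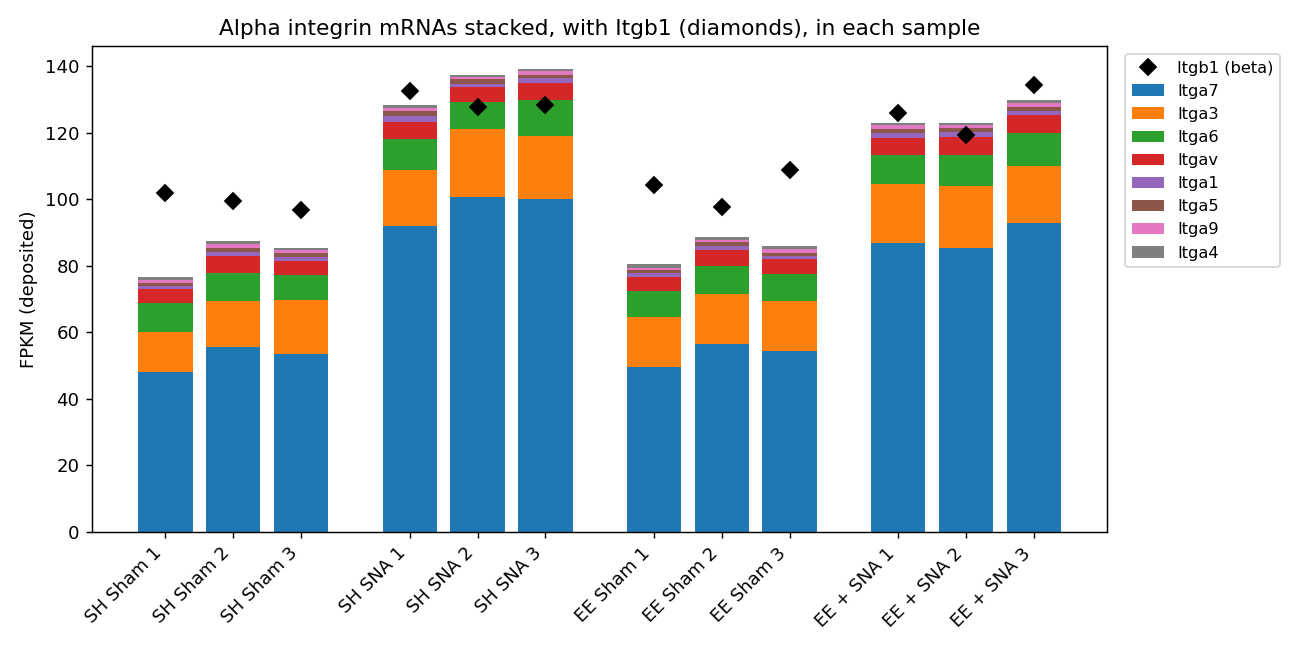
FPKM of the 8 alpha subunits stacked in each sample (y axis, from 0), with the FPKM of Itgb1 as diamonds. The stack is 76.6 to 88.7 FPKM high in the 6 sham samples and 123 to 139 FPKM high in the 6 SNA samples, and most of the added height is Itga7.

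When EE + SNA was compared with SH Sham, the comparison that the study made for the combined treatment, 4 of the 10 genes were higher and 0 lower after adjustment (edgeR), against 6.87% and 5.63% of all genes. Before adjustment 5 were higher and 0 lower against 14.7% and 12.6%, and the EE + SNA samples lay above without overlap for 5 and below for 0, against 16.1% and 15.7%. This comparison shares its controls with SH SNA against SH Sham and its EE + SNA samples with the comparison in EE, so its values stand beside theirs and are no independent repeat. Itga7 had a log2 fold change of 0.77 (SE 0.066, adjusted P = 2.24e-05), Itgb1 of 0.37 (SE 0.063, adjusted P = 0.00278), Itga3 of 0.38 (SE 0.086, adjusted P = 0.0136) and Itgav of 0.29 (SE 0.075, adjusted P = 0.0225). Without EE + SNA replicate 3 all 4 calls were kept (adjusted P = 2.17e-05, 0.00688, 0.016 and 0.0474 in the same order, edgeR). The calls of Itga3 and Itgav were lost without SH Sham replicate 1 (adjusted P = 0.053 and 0.0738, edgeR) or without EE + SNA replicate 1 (0.0538 and 0.0734), and that of Itgav also without SH Sham replicate 3 (0.0862).

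No integrin gene differed beyond the spread of the samples between housings at the adjusted threshold. In EE Sham against SH Sham, 0 of 10 passed at an adjusted P-value of 0.05 (edgeR and DESeq2) and 0 at an unadjusted 0.05, where 0.00616% and 2.97% of all genes passed. With the replicate numbers as a block, 0 of the 10 and 29 of all genes passed. The largest values were 0.19 for Itga4 (95% interval −0.063 to 0.44) and −0.18 for Itga5 (−0.57 to 0.22), and the interval of Itga7 was −0.12 to 0.20 around 0.040. In EE + SNA against SH SNA, 0 of 10 passed after adjustment in edgeR or DESeq2, where 0% of all genes passed in edgeR. Before adjustment 0 passed in edgeR, where 4.1% of all genes did, and 1 passed in DESeq2. Itga7 came nearest, at 343 to 379 CPM in EE + SNA against 369.7 to 410.0 CPM in SH SNA, ranges that overlap, with a log2 fold change of −0.14 (95% interval −0.27 to 0.00088, unadjusted P = 0.0513, adjusted P = 0.989, edgeR). For Itgb1 the value was −0.026 (−0.16 to 0.11). Whether SNA acted differently in EE was tested as the interaction between housing and surgery over the 12 samples. Of the 10 genes 0 passed in edgeR or DESeq2 and 0 before adjustment, where 0% and 2.61% of all genes passed in edgeR. EE Sham enters this test, so a difference in how its libraries were made could not be told apart from the interaction. The difference of the 2 responses was −0.18 for Itga7 (95% interval −0.37 to 0.022, adjusted P = 0.99995, edgeR), −0.18 for Itga3 (−0.44 to 0.083) and −0.097 for Itgb1 (−0.29 to 0.093). The intervals do not show that the responses were alike.

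The rest of the integrin pathway was counted over lists of other subunits, of ligands and of adhesion proteins at the cytoplasmic side. Of the 16 other integrin subunits tested, Itgam, the alpha subunit of the myeloid receptor CR3, was the 1 called in SH, with a log2 fold change of 0.58 (SE 0.17, adjusted P = 0.0425, edgeR), and 0 were lower, beside 6.06% and 5.17% of all genes. In EE 0 were called in edgeR, where 2.51% and 2.33% of all genes were, with 3 higher and 0 lower before adjustment beside 10.3% and 10.4%. In EE + SNA against SH Sham Itgam was again the 1 called (0.90, SE 0.27, adjusted P = 0.0456), beside 6.87% of all genes higher and 5.63% lower. The median log2 fold change of this list was 0.30 in SH and 0.29 in EE. Itgam stood at 4.63 to 6.81 CPM in SH Sham, 6.93 to 8.87 CPM in SH SNA, 5.68 to 6.91 CPM in EE Sham and 8.37, 6.96 and 15.7 CPM in EE + SNA replicates 1, 2 and 3. The third of these is the sample with the most neutrophil and macrophage mRNA, and without it the log2 fold change against SH Sham was 0.47 and the call was lost (adjusted P = 0.133, edgeR). In EE its log2 fold change was 0.64 with that sample and 0.21 without it, neither of them called. Without SH SNA replicate 2, Itgam was 0.69 in SH (adjusted P = 0.0295, edgeR) and 2 of the list were called, the other being Itgb4, a gene outside the rule for named genes. Itgam is a gene of myeloid cells, and the macrophage markers summed to 130 to 142 CPM in SH Sham, 149.6 to 206 CPM in SH SNA, 123 to 158 CPM in EE Sham and 165 to 267 CPM in EE + SNA.

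Of the 24 matrix ligands tested, 3 were higher and 0 lower in SH, 1 was higher in EE and 5 were higher in EE + SNA against SH Sham, with medians of 0.21, 0.23 and 0.31. Over all genes 6.06%, 2.51% and 6.87% were higher and 5.17%, 2.33% and 5.63% lower in these comparisons. Lama5, a laminin alpha chain of basement membranes, rose from 7.56 to 13.4 CPM in SH (log2 fold change 0.83, adjusted P = 0.000991, edgeR), and its value in EE was 0.47 (adjusted P = 0.0658). Spp1, the RGD protein osteopontin, rose from 239 to 314 CPM in SH (0.39, adjusted P = 0.0128). Its value was 0.57 in EE (adjusted P = 0.0577, edgeR), which was not called, and 0.34 there without EE + SNA replicate 3. In EE + SNA against SH Sham it was 0.66 (adjusted P = 0.00845, edgeR), and 0.43 without that sample. The third called in SH was Lamc1, a laminin gamma chain, at 0.34 (adjusted P = 0.0492). Lamc1 falls outside the rule for named genes and was named after its value was seen. In EE the 1 called was Lama2, the laminin alpha chain of the Schwann cell basal lamina, which rose from 29.2 to 37.7 CPM (0.35, adjusted P = 0.0377). Without EE + SNA replicate 3 its value was 0.32 and 0 ligands were called in EE (adjusted P = 0.098 for Lama2, edgeR), while 5 were still called against SH Sham. Without SH SNA replicate 2, 4 were called in SH, Lama2 being the added gene (0.42, adjusted P = 0.0269, edgeR).

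Of the 37 adaptors and kinases tested, 5 were higher and 1 lower in SH, 2 higher and 0 lower in EE, and 10 higher and 1 lower in EE + SNA against SH Sham, with medians of 0.12, 0.079 and 0.12, beside the same shares of all genes. Tln1 and Tln2 encode the talins that bind the beta subunit tail and activate the receptor, and they moved in opposite directions. Tln1 rose from 128 to 169 CPM in SH (log2 fold change 0.40, adjusted P = 0.00497, edgeR), and Tln2 fell from 195 to 157 CPM (−0.30, adjusted P = 0.0354). In EE their values were 0.19 and −0.29 (adjusted P = 0.113 and 0.0578), which were not called. Lims2, an adaptor of integrin-linked kinase, rose in SH (0.45, adjusted P = 0.0159). Its value was 0.53 in EE (adjusted P = 0.0635, edgeR), which was not called, and 0.64 in EE + SNA against SH Sham (adjusted P = 0.00176). In EE the 2 called were Ptk2, focal adhesion kinase (0.32, adjusted P = 0.0306), and Bcar1, a docking protein of that kinase (0.26, adjusted P = 0.0497). Ptk2 was also called in SH (0.34, adjusted P = 0.00638, edgeR) and in EE + SNA against SH Sham (0.32, adjusted P = 0.00896). Fermt3, the kindlin of blood cells, was higher in EE + SNA than in SH Sham (0.68, adjusted P = 0.0304). Without SH SNA replicate 2, 6 were higher and 0 lower in SH, with Tln2 at −0.29 (adjusted P = 0.0794, edgeR). Without EE + SNA replicate 3, 1 was higher in EE, where Ptk2 was kept (adjusted P = 0.0417, edgeR) and Bcar1 was not (0.0744), and 6 were higher and 0 lower against SH Sham, where Fermt3 was not called (0.53, adjusted P = 0.0898). Between housings and for the interaction, 0 genes of the 3 lists passed after adjustment in edgeR. Before adjustment the lists held 1 in EE Sham against SH Sham (of 24 ligands). They held 4 in EE + SNA against SH SNA (2 of 16 other subunits and 2 of 24 ligands) and 0 for the interaction. In the same order 2.97%, 4.1% and 2.61% of all genes passed before adjustment.

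**Figure D4:**
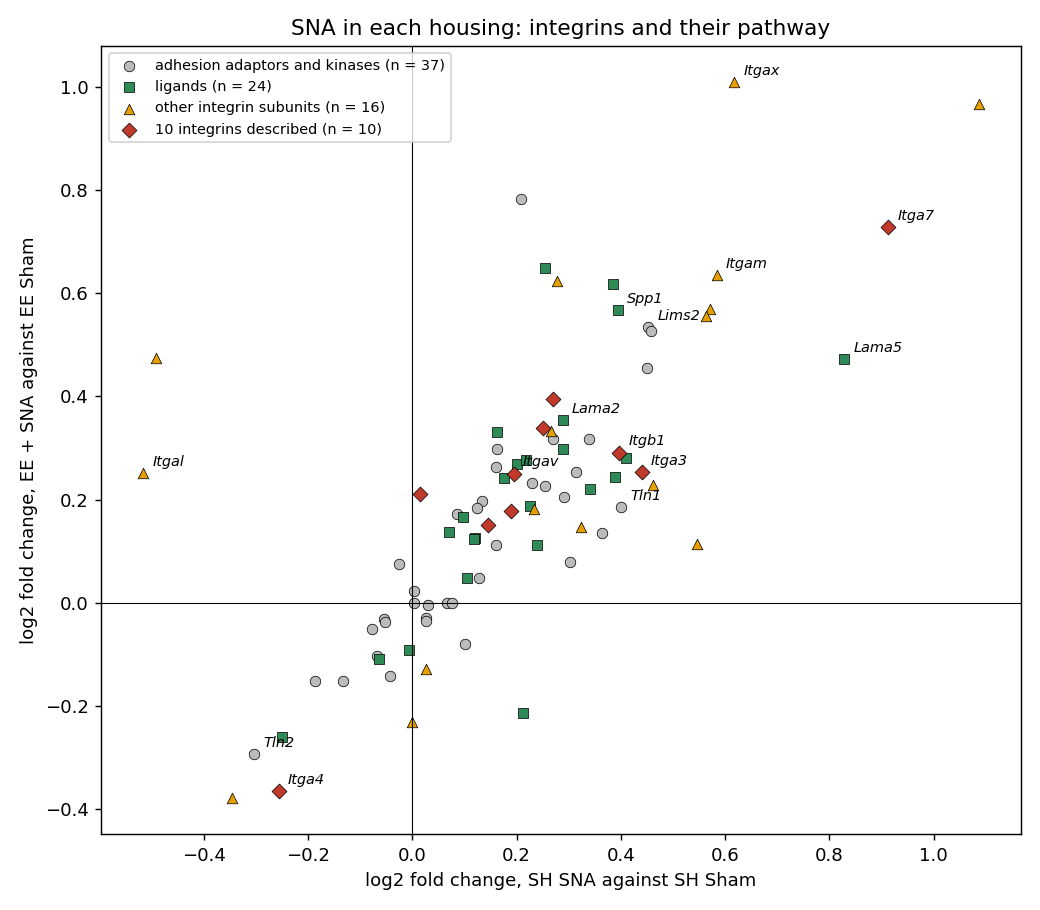
Log2 fold change after SNA in SH (x axis) and in EE (y axis) of the 10 integrins and of the genes of the 3 pathway lists, 1 point per gene. Itga7 lies far to the upper right of the other 9 integrins, and Itga4 and Tln2 lie at the lower left.

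Sums of cell type markers are set beside these results. The sensory neuron markers summed to 10106 to 10554 CPM in SH Sham and 8886 to 9506 CPM in SH SNA. They summed to 9560 to 10261 CPM in EE Sham and 8887 to 9423 CPM in EE + SNA. Of the 9 neuron markers, 3 were called lower in SH (Isl1, Nefh and Rbfox3) and 1 in EE (Isl1). Over all genes 5.17% were lower in SH and 2.33% in EE. In bulk tissue fewer cells of a type and less RNA per cell cannot be told apart. The 6 markers of myelinating Schwann cells summed to 6724 to 8195 CPM in SH Sham, 7165 to 10640 CPM in SH SNA, 5921 to 8382 CPM in EE Sham and 8688 to 11474 CPM in EE + SNA, and the 6 pericyte and smooth muscle markers to 314 to 351, 349 to 386, 332 to 379 and 408 to 432 CPM in the same order. In that order, the 5 satellite glia markers summed to 2231 to 2427, 2251 to 2554, 1961 to 2286 and 2241 to 2412 CPM, the 6 endothelial markers to 102 to 128, 125 to 136, 90.9 to 121 and 136 to 151 CPM, and the 6 fibroblast markers to 674 to 769, 668 to 926, 655 to 766 and 820 to 1036 CPM. All EE + SNA samples lay above all EE Sham samples in the sums of the Schwann cell, pericyte and smooth muscle, endothelial, fibroblast and macrophage markers, and all SH SNA samples lay above all SH Sham samples in the macrophage sum. Of single markers, Mrc1 and Lyz2 of 10 for macrophages (log2 fold changes 0.66 and 0.47) were called higher in SH (edgeR). So were Glul of 5 for satellite glia (0.47) and Ly6c1 of 6 for endothelium (0.29), beside 6.06% of all genes. In EE, Glul (0.36) and Dcn of 6 for fibroblasts (0.36) were called higher, beside 2.51%. Of the 5 satellite glia markers, 2 had positive and 3 negative fold changes in SH (list median −0.041), and 3 and 2 in EE (0.058). In EE + SNA against SH Sham 2 were positive and 3 negative (−0.097). Of the 6 endothelial markers, 4 were positive and 2 negative in SH. Against SH Sham, EE + SNA had 3 macrophage, 1 satellite glia, 3 Schwann cell and 2 endothelial markers called higher. So were 5 pericyte and smooth muscle and 2 fibroblast markers, and 3 neuron markers were called lower. Over all genes 6.87% were higher and 5.63% lower in this comparison. No neutrophil, lymphocyte, skeletal muscle or epidermal marker was called in any of these 3 comparisons. For the lymphocyte list, Cd3e or Cd3d was at 0 in 1 or more samples of SH SNA, EE Sham and EE + SNA. The part of these cells in the rise of Itga7, Itga3 and Itgb1 was not tested.

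The genes whose level followed Itga7 most closely over the 12 samples were Tubb6, a beta tubulin (Pearson r = 0.991 of log2 CPM), Itpkc, a kinase of inositol trisphosphate (0.988), and Rnf19b, an E3 ubiquitin ligase (0.987). Their log2 fold changes in SH were 1.16, 1.15 and 0.73. For Itgb1 they were Slfn10-ps (0.988), Plekha3 (0.987) and Azin1 (0.984), which encodes an inhibitor of antizyme. In SH their log2 fold changes were 2.27, 0.37 and 0.74. Slfn10-ps had very few reads without injury, with a mean of 0.275 CPM in SH Sham. These are descriptions over samples that share groups, libraries and depth, ranked among all genes tested.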

How the data were processed

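Paired reads of 12 DRG libraries were aligned by the authors to mm10 with TopHat2 2.0.12 and Bowtie2 2.2.3 and counted with HTSeq. The deposited counts are whole numbers of reads per gene, not normalized, and 46.7% to 47.6% of the reads per sample had no feature. The deposited FPKM values are divided by gene length and library size by the authors and were used for comparisons between genes.

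In R 4.3.3, counts were filtered with filterByExpr (10 counts, total 15), scaled by TMM in edgeR 4.0.16 (factors 0.978 to 1.02) and fitted by quasi-likelihood, with two-sided F tests, on the 6 samples of each comparison, or 12 for the interaction. Calls were made at a Benjamini-Hochberg adjusted P-value of 0.05, with the unadjusted 0.05 of the paper beside it. CPM used TMM and log2 CPM a prior count of 2. The fitting script was tested on simulated data. Alternatives used the likelihood ratio test, DESeq2 1.42.0, limma 3.58.1 on log2(FPKM + 1), library size alone, no filter, 1 fit of all samples, a replicate block, and each sample left out.

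Integrins and lists were chosen with earlier results of these data known. Of each list, up to 2 called genes per direction with the largest change and no overlap were named. Whether replicate numbers pair samples was looked at with a cut of 0.1 on the correlation of same-numbered samples. The main fits used no replicate block in any comparison, and the block was run only as an alternative. All same-numbered samples passed the cut only in EE Sham against SH Sham, at 0.111 to 0.331, where other pairs reached 0.194 and so overlapped. In the other comparisons the lowest same-numbered value was −0.235 to 0.0573. In EE + SNA against SH SNA same-numbered samples correlated at 0.0573 to 0.126 and other pairs at −0.123 to 0.0403. Every same-numbered pair there lay above every other pair, though not every one passed the cut. Nothing in the labels ties the numbers to a shared animal or day. Sequences are from RefSeq, GRCm38.p6. Protein sequences were not used here. Figures used Python 3.11.15 and Matplotlib 3.10.9.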

Additional observations from a re-analysis of the deposited data

How the results depend on the processing

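The count of integrins called was 3 in SH SNA against SH Sham under every alternative with all samples (likelihood ratio test, DESeq2, library size, no filter, replicate block, log2(FPKM + 1), all samples in one fit) and 3 to 4 with each sample left out. In EE + SNA against EE Sham, where it was 3, it was 1 with log2(FPKM + 1) and limma, 2 with all 12 samples in one fit, 4 with the likelihood ratio test and without the filter, and 1 to 2 with each sample left out, with Itga7 called in all of these. In EE + SNA against SH Sham, where it was 4, it was 2 with log2(FPKM + 1) and 2 to 4 with each sample left out. In both housing comparisons and the interaction it was 0 under all alternatives, and 0 to 1 before adjustment. With the replicate block it was 3, 3, 4, 0, 0 and 0, and the block changed no call of these counts. In all genes the block called 29 rather than 1 in EE Sham against SH Sham. The cause of these shifts was not tested, and where a sample was left out, fewer samples and the loss of that sample cannot be told apart. Over all genes, where edgeR called 785 in EE + SNA against EE Sham, 1 in EE Sham against SH Sham and 0 in both EE + SNA against SH SNA and the interaction, the alternatives with all samples gave 481 to 1694, 0 to 48, 0 to 17 and 0 to 77, the upper ends without the filter. Signs turned only for values that were not called: for Itga9 in SH to −0.0028 with log2(FPKM + 1), and for the following log2 fold changes, whose range spans 0 as each sample is left out. In SH SNA against SH Sham, the range was −0.079 to 0.13 (Itga9). It was −0.045 to 0.19 (Itgb8) in EE + SNA against SH Sham. In EE Sham against SH Sham, these were −0.069 to 0.0099 (Itga6), −0.014 to 0.081 (Itga7), −0.20 to 0.037 (Itgb8), −0.20 to 0.037 (Itga9), −0.28 to 0.051 (Itga1) and −0.029 to 0.11 (Itgav). In EE + SNA against SH SNA, these were −0.17 to 0.12 (Itga5), −0.19 to 0.039 (Itgb8), −0.080 to 0.20 (Itga1), −0.11 to 0.076 (Itga6), −0.075 to 0.023 (Itgb1) and −0.042 to 0.16 (Itga4). For the interaction, these were −0.019 to 0.13 (Itgav), −0.020 to 0.30 (Itga1), −0.13 to 0.14 (Itgb8) and −0.093 to 0.093 (Itga6), and Itga6 was also turned to 0.00077 with library size, 0.0036 without the filter, 0.0011 with the replicate block and 0.0053 with log2(FPKM + 1). Of the pathway lists, called genes in EE + SNA against SH Sham went from 10 adaptors higher to 6, from 1 lower to 0 and from 1 other subunit to 0 without EE + SNA replicate 3, in EE from 1 ligand to 0 and from 2 adaptors to 1, and in SH, without SH SNA replicate 2, from 1 other subunit to 2 and from 1 adaptor lower to 0. These last fits were chosen after seeing the data.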
